A study of Mus musculus with 18 samples.

Results

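The immunity-related GTPases examined were Irgm1, Irgm2, Igtp, Iigp1, Tgtp1, Tgtp2 and Ifi47, which are 7 of the 54446 genes in the expression table of mouse eosinophils cultured with apoptotic cells (ACs). They were taken by their Ensembl identifiers and not by a cut on their measured values. The list was, however, chosen with earlier results of these data known. All 18 libraries came from C57BL/6 eosinophils, which the study isolated from the peritoneal cavity of mice carrying an Il5 transgene, and every library, controls included, received ACs, which the study made by treating wild-type thymocytes with dexamethasone. There were 2 experiments, each with its own ACs libraries and 3 libraries per group. One, called Type 1, added E. coli, IFN-γ or both to the ACs, and the other added IL-4. After culture the study pulled the eosinophils out again with anti-Siglec-F beads. Eosinophils without ACs are not analysed here. Each stimulus was set against the ACs libraries of its own experiment, and the question was whether eosinophils that meet ACs still switch on this defence family when given a Type 1 or a Type 2 signal.

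Immunity-related GTPases (IRGs) are large GTP-binding proteins that interferon-γ induces in mouse cells. They act against microbes that live inside membrane vacuoles, such as Toxoplasma and Chlamydia. The family has regulators and effectors. The regulators Irgm1, Irgm2 and Igtp (also called Irgm3) sit on the membranes of the host cell and keep the effectors inactive there. The effectors Iigp1 (Irga6), Tgtp1 and Tgtp2 (Irgb6) and Ifi47 (Irgd) load onto the vacuole and help to break it, together with guanylate-binding proteins and with the proteins that attach ATG8 to membranes. Promoters of genes that interferon-γ switches on often hold short elements called GAS and ISRE, and the latter is bound by interferon regulatory factors such as IRF1.

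Between 779421 and 7782072 reads were counted on genes per library. The libraries numbered 3 of the IL-4 experiment were the shallowest, and in them 3 reads, taken as the floor of detection, stand for normalized counts of 15.42 (IL-4 + ACs) and 16.08 (ACs), against 1.58 to 6.16 in the other 16 libraries. The normalized count is the number of reads divided by a size factor of the library. The study describes the lanes of its heat plot of ACs as different mice, and the labels do not say this for each group, so p-values measure the spread between these libraries only. Of the defining eosinophil transcripts, Siglecf was at 1514 to 3367 and Ccr3 at 2623 to 4934 in all libraries, while Epx, the eosinophil peroxidase, was at 0 to 25.7. Macrophage markers were well above the floor in all groups, and C1qc reached 14355. The summed level of 11 thymocyte markers was 28.98 to 116.1.

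The members other than Iigp1 lie on chromosome 11 of the GRCm38 genome. Irgm1 (chr11:48861968-48871683, minus strand), Tgtp1 (chr11:48985327-48994172, minus), Tgtp2 (chr11:49057194-49064206, minus) and Ifi47 (chr11:49076587-49096974, plus) share a stretch of it. Igtp (chr11:58199556-58207591, plus) and Irgm2 (chr11:58199618-58222782, plus) overlap each other farther along. All are annotated as protein coding. The sequence just before the RefSeq start of each gene below was read from RefSeq (GRCm38.p6), since the tested members rose together with IFN-γ. Tgtp1 and Tgtp2 were not among those tested. Gm12185 is a related gene whose GENCODE exons overlap those of Tgtp1, and its window holds both elements. The windows of Ifi47, Gm12250, Gm5431, 9930111J21Rik1, 9930111J21Rik2 and Irgq were read as well and are not printed. Among these, the window of Gm12250 also holds both elements, in another arrangement, and that of 9930111J21Rik1 holds an ISRE match after the start. The gene positions above are GENCODE's, and for Irgm1, Irgm2, Tgtp1 and Gm12185 the RefSeq start, and so the printed window, lies inside the GENCODE gene. Capitals mark GAS letters (TTCNNNGAA) and ISRE letters (GAAA, any 2 bases, GAAA). The bases run from 110 to 14 before the RefSeq start, except for Irgm1, where the window falls in an annotated exon and only 30 bases are shown. They are, in this order, at chr11:58199446-58199542 (plus), chr11:58214867-58214963 (plus), chr11:48992260-48992356 (minus), chr11:49064226-49064322 (minus), chr11:48927196-48927292 (minus) and chr11:48871434-48871463 (minus).
Igtp: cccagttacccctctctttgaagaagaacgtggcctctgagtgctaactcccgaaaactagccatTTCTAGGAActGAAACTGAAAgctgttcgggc
Irgm2: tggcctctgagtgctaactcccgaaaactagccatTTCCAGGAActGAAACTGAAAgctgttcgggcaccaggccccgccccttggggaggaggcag
Tgtp1: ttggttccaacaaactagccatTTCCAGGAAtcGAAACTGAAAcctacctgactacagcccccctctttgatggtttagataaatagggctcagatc
Tgtp2: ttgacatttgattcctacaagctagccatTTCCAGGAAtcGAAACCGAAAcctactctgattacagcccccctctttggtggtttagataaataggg
Gm12185: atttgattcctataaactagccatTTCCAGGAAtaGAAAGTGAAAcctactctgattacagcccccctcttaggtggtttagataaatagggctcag
Irgm1: tagcctgtttcaaGAAATAGAAACCGAAAc

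In Igtp, Irgm2, Tgtp1, Tgtp2 and the related gene Gm12185, a GAS match was followed after 2 bases by an ISRE match on the same strand. This arrangement was read off these windows and then searched for on both strands, so its presence in them was fixed in advance. It was present in 5 of the 32851 promoter windows of the RefSeq table (250 bases before to 50 after each start), or 0.015%, and those 5 windows belong to the 5 genes named. In all 5 the bases ctagccat stand just before the GAS match, so these windows are alike beyond the elements themselves. The share of 0.015% describes them and is no test of rarity. An ISRE match, with or without a GAS match, was in 3.44% of all windows, and a GAS match, with or without an ISRE match, in 8.30%. Irgm1 had 2 overlapping ISRE matches and no GAS match, and the window of Ifi47 held neither set of letters. No promoter of Iigp1 is in the table. A match describes letters and is not evidence of binding.

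IFN-γ + ACs raised every member that could be tested, from 2.15-fold for Irgm1 to 18.1-fold for Iigp1. Of the 7 members, 5 reached a mean of 10 normalized counts over the 12 Type 1 libraries and were tested, and all 5 were past the threshold in the higher direction, where 11.4% of the 10166 genes tested were. A gene was past the threshold at an adjusted p under 0.05 in limma and a change of at least 1.5-fold, on log2 of the normalized count plus 1, and the adjusted p-values of this text are limma's, corrected by Benjamini-Hochberg over all genes tested. The median log2 change of the 5 was 1.83, with 0 for all genes tested to 2 decimals. No library with IFN-γ + ACs overlapped a library with ACs alone for any of the 5, where 22.6% of all genes were higher without overlap.

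Among the regulators, Igtp had normalized counts of 644, 649 and 621 with ACs and of 4045, 4459 and 3965 with IFN-γ + ACs. Its log2 fold change was 2.70 ± 0.10 (SE, n = 3 per group, adjusted p = 3.71e-13), which was the 88th largest rise of all genes tested. Irgm2 had 381, 384 and 422 with ACs and 1099, 1026 and 1118 with IFN-γ + ACs, a log2 fold change of 1.45 ± 0.11 (SE, adjusted p = 7.92e-09). Irgm1, which is also needed for the survival of blood cells under interferon, had 494, 431 and 515 with ACs and 894, 884 and 1373 with IFN-γ + ACs. The last of these libraries was the shallowest of the experiment, and the change of Irgm1 was 1.10 ± 0.17 (SE, adjusted p = 5.83e-05) with it and 0.89 without it. The 95% intervals of the 3 regulators placed Igtp (2.49 to 2.91) above Irgm2 (1.22 to 1.68) and Irgm1 (0.75 to 1.45), and those of Irgm2 and Irgm1 overlapped.

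Among the effectors, Iigp1 had 264, 282 and 202 with ACs and 3921, 4922 and 4714 with IFN-γ + ACs, a log2 fold change of 4.18 ± 0.19 (SE, adjusted p = 3.53e-12). It was the 18th largest rise of all genes tested, and its 95% interval (3.79 to 4.57) lay above those of the other members. Ifi47 had 4093, 3894 and 3818 with ACs and 13263, 14771 and 14012 with IFN-γ + ACs, a change of 1.83 ± 0.10 (SE, adjusted p = 5.66e-11). It lay on chromosome 11, and Iigp1 (chr18:60376027-60392634, plus strand, protein coding) on chromosome 18 next to other IRG genes. Together the 7 members took 0.146% ± 0.00364 (SD, n = 3) of all counted reads with ACs and 0.538% ± 0.0303 (SD, n = 3) with IFN-γ + ACs.

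**Figure D1:**
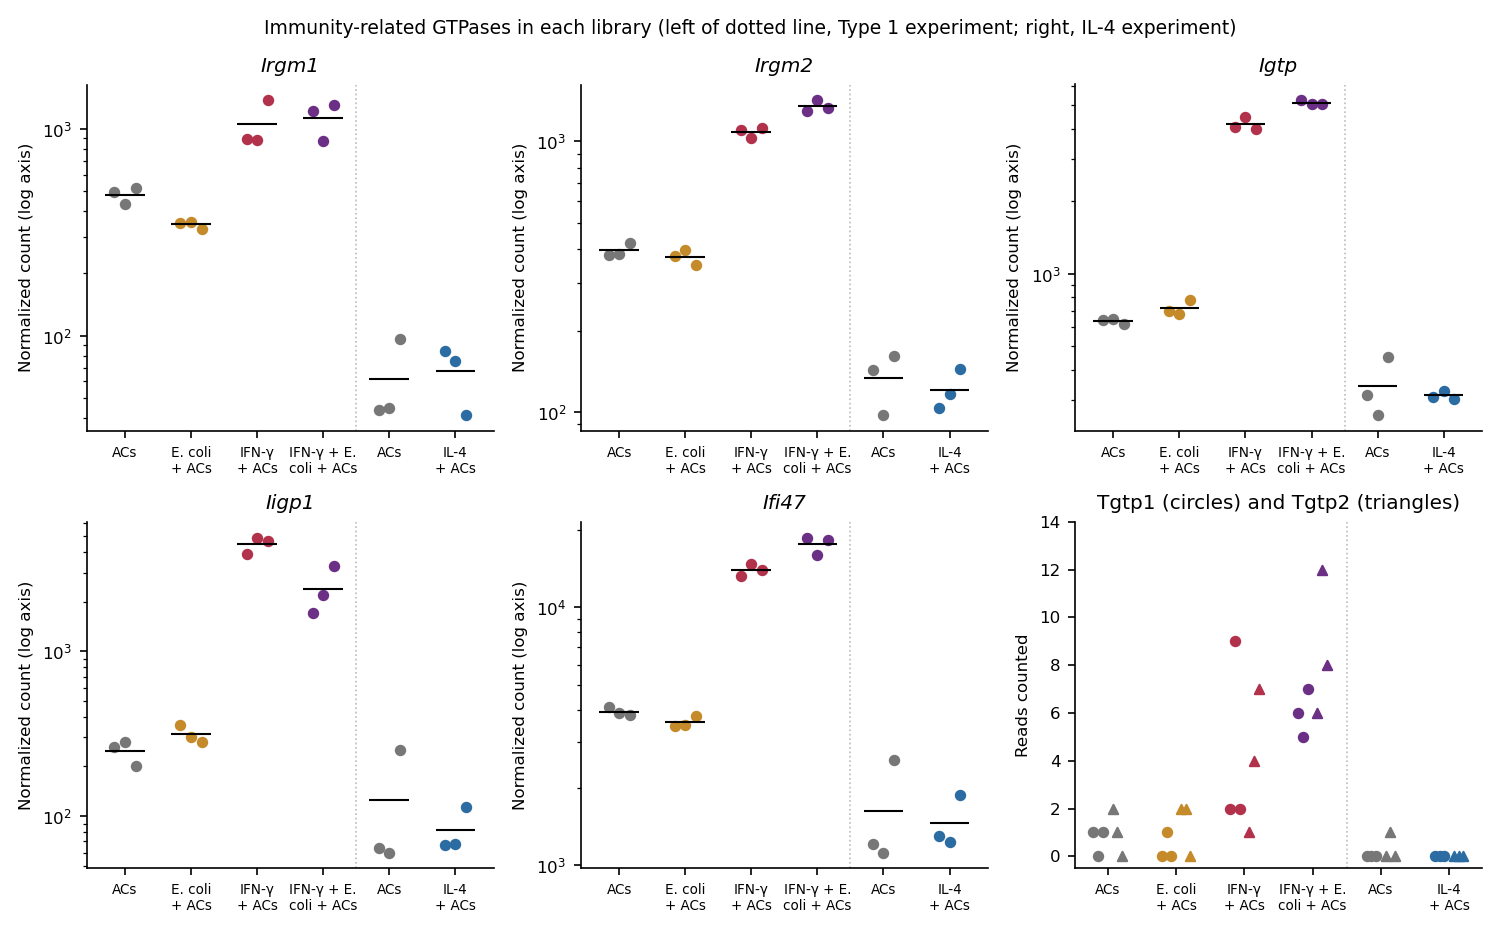
Level of each member in each of the 18 libraries, by group, with the Type 1 libraries left of the dotted line and those of the IL-4 experiment right of it. Points are libraries and bars are group means of the normalized count on a log axis, except in the last panel, which gives reads counted on Tgtp1 (circles) and Tgtp2 (triangles), at most 12 in a library. The groups with IFN-γ stand above the rest in every panel with bars, and Iigp1 is lower with IFN-γ + E. coli + ACs than with IFN-γ + ACs.

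Cell type markers moved with IFN-γ as well. With IFN-γ + ACs against ACs, 1160 of all 10166 genes tested rose and 1013 fell. Of the 10 macrophage markers, 5 rose and 1 fell, and their summed level was 16491 to 21756 with ACs and 28530 to 38430 with IFN-γ + ACs. Of the 10 eosinophil markers, 7 were tested and 4 fell, and their sum was 16335 to 17755 and then 10004 to 11253. Of 6 B cell markers, 2 were tested and 1 fell. Their sum was 902 to 1043 with ACs and 97.6 to 183 with IFN-γ + ACs. It was 309 to 317 with E. coli + ACs and 154 to 172 with IFN-γ + E. coli + ACs. In such bulk samples fewer cells of a type and less RNA per cell cannot be told apart, and the part of these markers in the rise of the IRGs was not tested.

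The effectors Tgtp1 and Tgtp2 were nearly uncounted. In the ACs libraries of the Type 1 experiment the reads on Tgtp1 were 1, 0 and 1, IFN-γ gave 2, 9 and 2, and IFN-γ with E. coli gave 6, 5 and 7. On Tgtp2 the reads were 2, 1 and 0, then 1, 4 and 7, and last 6, 12 and 8. E. coli without IFN-γ gave 0, 1 and 0 reads on Tgtp1 and 2, 2 and 0 on Tgtp2, and the 6 libraries of the IL-4 experiment together gave 1 read, on Tgtp2. Both genes were at or under the floor of 3 reads in every library without IFN-γ, and above it in all 3 libraries with IFN-γ + E. coli + ACs. The 2 genes are near copies of each other. Every stretch of 50 bases in the last 500 bases of the Tgtp1 transcript, where the libraries capture RNA, is also in Tgtp2, and every such stretch of Tgtp2 is in Tgtp1. A read from such a stretch has 2 homes, and the study counted only reads with 1, so these values are uncertain and no fold change is given. The share of such stretches found in another gene was 3.99% for Irgm1 and 0 for Irgm2, Igtp, Iigp1 and Ifi47. Exons overlap on the same strand between Igtp and Irgm2 (162 bases, 8.01% of the exonic bases of Igtp) and between Ifi47 and the receptor gene Olfr56 (111 bases).

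E. coli + ACs moved none of the 5 members past the threshold, where 10.3% of the genes tested were. Among these libraries limma called 0 members, and edgeR and DESeq2 on the recovered reads called 0 as well. In limma 2633 of the 10166 genes tested had an unadjusted p under 0.05, and 1 member did. That member was Irgm1, at 351, 355 and 329 with E. coli + ACs against 494, 431 and 515 with ACs. The 3 libraries with E. coli lay below all 3 with ACs, and the log2 change was -0.47 ± 0.17 (SE, adjusted p = 0.0724). Ifi47 also lay lower without overlap (3466, 3489 and 3790, log2 change -0.14) and Igtp higher (702, 682 and 780, log2 change 0.17), in a comparison where 18.4% of all genes were lower and 19.9% higher without overlap. Irgm2 was at 376, 396 and 349 and overlapped the ACs libraries. Iigp1 was at 359, 302 and 280, and its log2 change was 0.34 (adjusted p = 0.273), with an interval from -0.05 to 0.73. Of the 10 macrophage markers 5 fell in this comparison, where 534 of the 10166 genes tested did. Their sum was 7753 to 10182 against 16491 to 21756, and their part in these values was not tested. Of all reads the E. coli + ACs libraries had 0.128% ± 0.00376 (SD, n = 3) on the 7 members.

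With both stimuli, the 5 members were again all higher than with ACs, where 14.7% of the genes tested were higher. The log2 fold changes of IFN-γ + E. coli + ACs against ACs were 3.23 ± 0.19 for Iigp1, 2.16 ± 0.10 for Ifi47, 1.77 ± 0.11 for Irgm2 and 1.21 ± 0.17 for Irgm1 (SE, n = 3 per group), and Igtp was 7.99-fold higher. The highest adjusted p of these was 1.24e-05, for Irgm1. Iigp1 and Igtp thus had overlapping intervals here (2.83 to 3.62 and 2.79 to 3.21), which they did not with IFN-γ + ACs. Against E. coli + ACs, the 5 were higher as well, by 1.69 for Irgm1 to 2.89 for Iigp1 on the log2 scale, where 9.79% of the genes tested were higher, and IFN-γ + ACs was higher than E. coli + ACs in all 5 too, where 9.84% of the genes were. The 7 members took 0.594% ± 0.0311 (SD, n = 3) of all reads. These comparisons share the ACs or the E. coli + ACs libraries with those above.

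**Figure D2:**
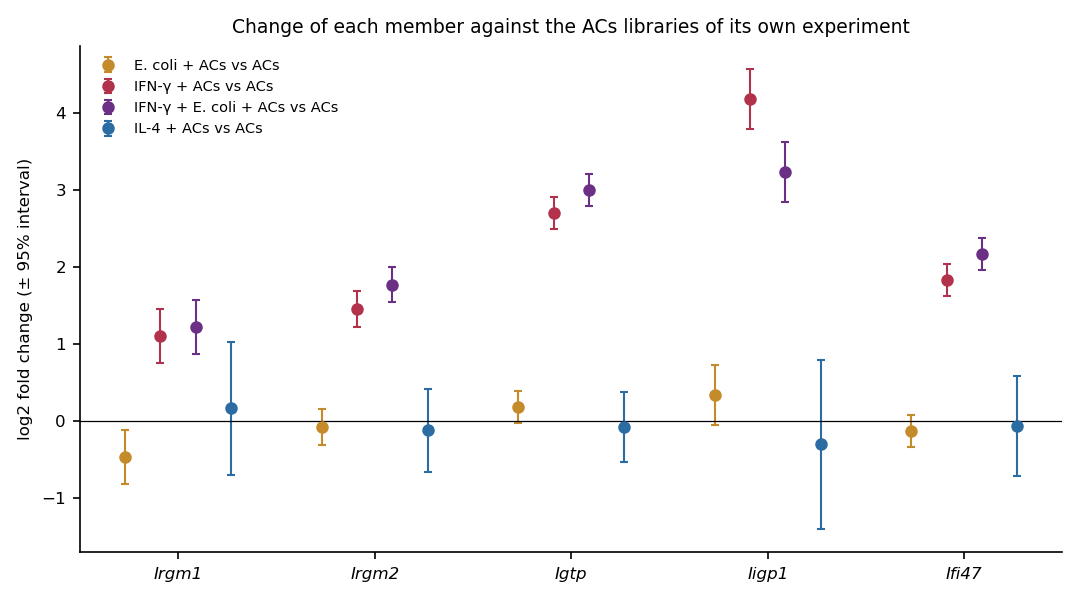
Log2 fold change of the 5 tested members for each stimulus against the ACs libraries of its own experiment. Points are limma estimates and whiskers 95% intervals, 3 libraries per group. The intervals for both comparisons with IFN-γ lie above 0 for each member, while 4 of 5 intervals with E. coli + ACs and all 5 with IL-4 + ACs include 0.

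E. coli on top of IFN-γ lowered Iigp1 and none of the other 4 tested members. Iigp1 had 1718, 2202 and 3291 with IFN-γ + E. coli + ACs, all below the 3921, 4922 and 4714 with IFN-γ + ACs. Its log2 change was -0.96 ± 0.19 (SE, n = 3 per group, adjusted p = 0.0012), or 0.515 of the level with IFN-γ + ACs, where 8.61% of the genes tested were past the threshold in the lower direction and 5.96% in the higher. The other 4 were not past it. Ifi47 had 18661, 16018 and 18322 against 13263, 14771 and 14012, a log2 change of 0.33 ± 0.10 (SE, adjusted p = 0.0226). Irgm2 had 1297, 1418 and 1329 against 1099, 1026 and 1118, a change of 0.32 ± 0.11 (SE, adjusted p = 0.0488). Igtp had 5237, 5054 and 5030 against 4045, 4459 and 3965, a change of 0.30 ± 0.10 (SE, adjusted p = 0.0409). In these 3 the groups did not overlap, as in 14.2% of all genes in that direction, opposite to Iigp1, but the changes were under 1.5-fold. Irgm1 had 1213, 871 and 1297 against 894, 884 and 1373 and the groups overlapped.

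The effect of E. coli on Iigp1 itself differed with and without IFN-γ. The interaction, which is the E. coli effect with IFN-γ minus that without, was -1.29 ± 0.26 on the log2 scale (SE, adjusted p = 0.00501), where 7.44% of the genes tested were past the threshold. Ifi47 had 0.47 ± 0.14 (SE, adjusted p = 0.0461), under 1.5-fold, and Irgm1, Irgm2 and Igtp had 0.58, 0.40 and 0.12 (adjusted p = 0.148, 0.127 and 0.662). The calls on Iigp1 were lost when all 18 libraries shared 1 estimate of the spread (adjusted p = 0.0786 against IFN-γ + ACs and 0.161 for the interaction, with the same log2 changes).

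The 3 other IRG genes measured on chromosome 18 fell together with Iigp1. The split of the IRG genes by chromosome was not among the planned comparisons and is a description. Gm4951 (chr18:60212080-60247820, plus) had 84.1, 125 and 105 with IFN-γ + E. coli + ACs against 190, 214 and 275 with IFN-γ + ACs, a log2 change of -1.11 ± 0.21 (SE, adjusted p = 0.00108). Gm4841 (chr18:60268305-60273272, minus) had 175, 194 and 244 against 318, 415 and 449, a change of -0.94 ± 0.25 (SE, adjusted p = 0.0122). F830016B08Rik (chr18:60293380-60303016, plus) had 331, 257 and 442 against 733, 595 and 1110, a change of -1.23 ± 0.24 (SE, adjusted p = 0.00139). All 4 genes on this chromosome were thus lower without overlap, where 15.3% of all genes were. Of the 8 tested on chromosome 11 none was past the threshold, with changes from -0.46 to 0.80. Of those 8, 9930111J21Rik2 (-0.46) was also lower without overlap, and its interval overlapped those of the 4 genes. Part of the end of F830016B08Rik is shared with other genes (54 of 451 stretches of 50 bases), so its level is less certain than that of Iigp1 or Gm4951, of which none is.

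**Figure D3:**
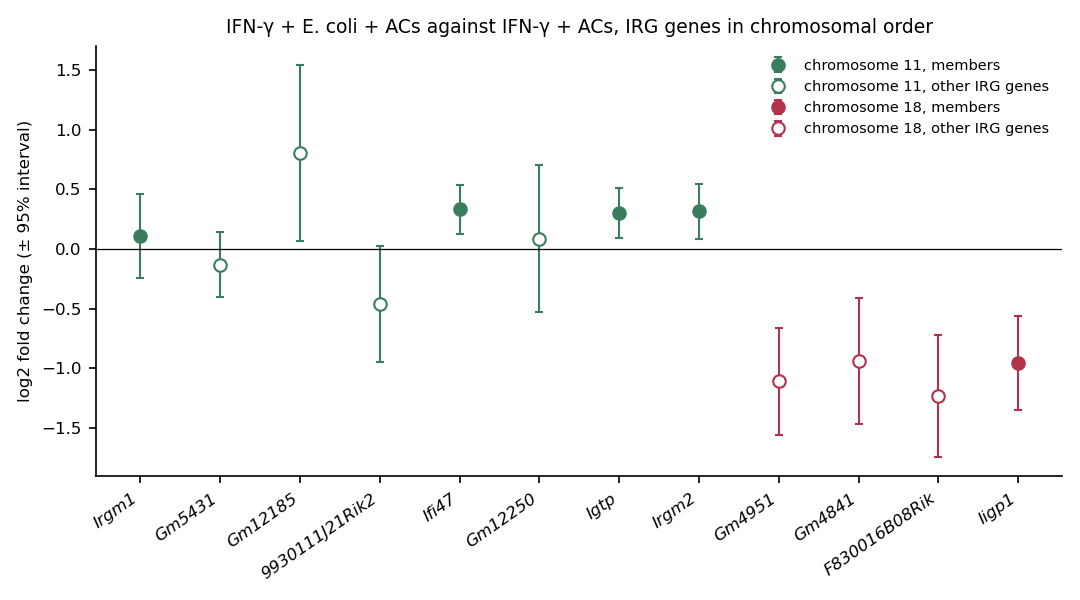
Log2 change of the IRG genes of chromosomes 11 and 18 with IFN-γ + E. coli + ACs against IFN-γ + ACs, in chromosomal order. Points are limma estimates, filled for members and open for other IRG genes, and whiskers are 95% intervals from 3 libraries per group. The 4 genes of chromosome 18 lie between -1.23 and -0.94, and the 8 of chromosome 11 between -0.46 and 0.80.

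The 4 genes on chromosome 18 did not all keep their calls. Under 22 alternatives each, Gm4951 stayed lower and past the threshold in 22, Iigp1 and F830016B08Rik in 21 and Gm4841 in 19, and all estimates stayed below 0. Iigp1, Gm4841 and F830016B08Rik lost the call when all 18 libraries were fitted together, and Gm4841 also without replicate 2 of IFN-γ + ACs (adjusted p = 0.0526) and without replicate 1 of IFN-γ + E. coli + ACs (adjusted p = 0.057). The interaction was past the threshold for Gm4951 (-1.31, adjusted p = 0.0117) and Gm4841 (-1.31, adjusted p = 0.0299) and not for F830016B08Rik (-1.06, adjusted p = 0.067). Under the same 22 alternatives it was past the threshold in 22 for Gm4951, 21 for Iigp1, 13 for Gm4841 and 3 for F830016B08Rik. Gm4841 lost it with no filter on low values (adjusted p = 0.0518), with all 18 libraries in 1 fit (0.336), and without replicate 1 or 2 of ACs, 1 or 2 of E. coli + ACs, 2 or 3 of IFN-γ + ACs, or 1 of IFN-γ + E. coli + ACs (0.0583 to 0.088).

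Macrophage markers moved in the same comparison. With IFN-γ + E. coli + ACs against IFN-γ + ACs, 9 of 10 fell, all 10 were lower without overlap (15.3% of all genes were), and their sum was 9832 to 10680 against 28530 to 38430. The sum of the eosinophil markers was 14440 to 17104 against 10004 to 11253, and of the 7 tested 2 rose and 1 fell. Their part in the fall of Iigp1 and its neighbours was not tested.

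**Figure D4:**
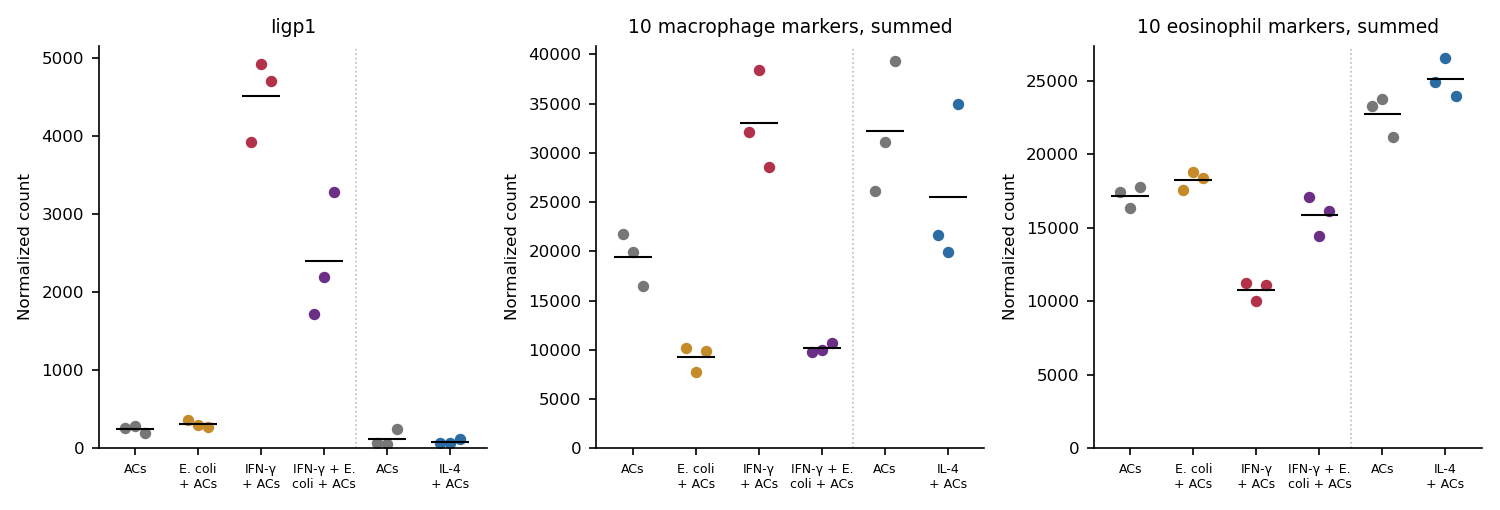
Normalized counts of Iigp1, of 10 macrophage markers summed and of 10 eosinophil markers summed, in each library by group, on linear axes from 0. Points are libraries and bars are group means, with the IL-4 experiment to the right of the dotted line. The macrophage sum is 9832 to 10680 with IFN-γ + E. coli + ACs and 7753 to 10182 with E. coli + ACs, below the other groups.

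IL-4 + ACs moved none of the 5 members past the threshold against the ACs libraries of the IL-4 experiment, where 1.09% of the 10669 genes tested were. Limma called 0 members, and edgeR and DESeq2 called 0. In limma 0 members had an unadjusted p under 0.05, where 1030 of the 10669 genes tested did. Igtp had 309, 328 and 303 with IL-4 + ACs and 315, 259 and 450 with ACs, a log2 change of -0.09 (95% interval -0.54 to 0.37). Irgm2 had 103, 116 and 144 with IL-4 + ACs and 143, 97.3 and 161 with ACs, and the interval of its change was -0.66 to 0.41. Ifi47 had 1292, 1226 and 1871 with IL-4 + ACs and 1205, 1119 and 2547 with ACs, with an interval of -0.72 to 0.58. The groups overlapped for these 3 genes, and the highest value of each was in the shallow ACs library numbered 3.

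The libraries numbered 3 also stood apart for the remaining genes. Iigp1 had 66.6, 67.5 and 113 with IL-4 + ACs and 63.9, 60.0 and 252 with ACs, and its interval reached from -1.41 to 0.79. Irgm1 had 84.6, 75.4 and 41.1 with IL-4 + ACs and 43.6, 44.4 and 96.5 with ACs. The libraries numbered 3 rest on 8 and 18 reads of Irgm1, and they deviate in opposite directions. Without both of them, Irgm1 was higher with IL-4 + ACs by 0.85 ± 0.21 (SE, n = 2 per group, adjusted p = 0.0284), and the changes of Igtp, Iigp1 and Ifi47 turned from below 0 to 0.16, 0.11 and 0.12. The libraries numbered 3 also had the highest macrophage sums of their groups, 34946 with IL-4 + ACs and 39331 with ACs, and the part of that in these values was not tested.

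The response to IFN-γ exceeded that to IL-4 in 4 of the 5 members, where 8.09% of the 10414 genes tested were past the threshold in that direction. The difference of the 2 responses, each against its own ACs libraries, was 4.49 ± 0.51 for Iigp1, 2.79 ± 0.20 for Igtp, 1.90 ± 0.29 for Ifi47 and 1.57 ± 0.22 for Irgm2 on the log2 scale (SE, highest adjusted p = 9.58e-05). For Irgm1 it was 0.94 ± 0.38 (SE, adjusted p = 0.113), and 0.26 (adjusted p = 0.575) without both libraries numbered 3 of the IL-4 experiment. The stimulus and the experiment were not crossed, so the difference holds between these experiments.

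With ACs alone, mean levels were higher in the former experiment, Type 1, than in that with IL-4. Irgm1 was at 480 ± 43.6 in the former and 61.5 ± 30.3 in the latter (SD, n = 3 each), a ratio of 7.80 that became 10.9 without the ACs library numbered 3 of the IL-4 experiment. The ratio was 2.96 for Irgm2, 2.42 for Ifi47 and 1.87 for Igtp, with no overlap between the libraries of the 2 experiments. For Iigp1 it was 1.99 with overlap, and 4.03 without that library. The summed B cell markers were at 902 to 1043 in the former and 406 to 466 in the latter. Macrophage sums went the other way (16491 to 21756 and 26097 to 39331), as did eosinophil sums (16335 to 17755 and 21204 to 23805). The part of these markers in the ratios was not tested. The 2 sets of ACs libraries belong to different experiments, so the condition of the cells and the experiment cannot be told apart, and no test was made. For all 5 genes, the order of the groups by mean level placed IFN-γ + ACs and IFN-γ + E. coli + ACs highest, then E. coli + ACs and ACs of Type 1, and both groups of the IL-4 experiment lowest. Between the neighbours ACs and IL-4 + ACs of the IL-4 experiment the libraries overlapped for all 5, and only Irgm1 was called, in the fits with array weights or without both libraries numbered 3.

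Among the 10 other IRG genes of the annotation, 8 could be tested and 6 rose with IFN-γ + ACs, with a median log2 change of 2.30. The largest rises were 4.48 for Gm4841, 4.25 for F830016B08Rik and 3.87 for Gm12185. Gm12185, whose exons share 223 bases with Tgtp1 on the same strand, had 12.2, 12.2 and 13.1 with ACs and 199, 182 and 207 with IFN-γ + ACs. With E. coli + ACs against ACs, 2 of the 8 fell, where 534 of the 10166 genes tested did. They were Gm5431 (28.6% of whose end is shared with other genes, log2 change -1.03 ± 0.13, SE, adjusted p = 1.7e-05) and 9930111J21Rik2 (-0.81 ± 0.23, SE, adjusted p = 0.026). IL-4 + ACs moved 0 of 7 tested.

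The guanylate-binding proteins, the other large family of interferon-induced GTPases that attack vacuoles, all rose with IFN-γ + ACs where tested (9 of 11), with a median log2 change of 2.97. Gbp5 rose by 4.03 ± 0.30, Gbp11 by 3.72 ± 0.55 and Gbp4 by 3.63 ± 0.17 (SE, n = 3 per group). Gbp11 was too low to be tested in the IL-4 experiment, so its fold change is less certain. With E. coli + ACs against ACs, 3 of the 9 tested rose and 1 fell, where 10.3% of all genes tested were past the threshold. With IFN-γ + E. coli + ACs against IFN-γ + ACs, 1 rose and 0 fell, where 5.96% of all genes tested rose. The riser, Gbp8, had a log2 change of 1.16 (adjusted p = 0.000307). Of 8 tested with IL-4 + ACs, 0 were past the threshold. Without both libraries numbered 3, Gbp2b (1.81) and Gbp5 (1.33) were.

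The IFN-γ signalling genes behaved unevenly. Of 12 tested with IFN-γ + ACs, 7 rose and 1 fell, with a median log2 change of 1.15. Ciita, the activator of MHC class II genes, rose by 4.27 ± 0.77, Irf8 by 2.56 ± 0.25 and Irf1 by 2.49 ± 0.12 (SE, n = 3 per group), and the gene that fell was Ifngr1 (-0.60, adjusted p = 0.00821), a chain of the IFN-γ receptor. Ciita did not reach a mean of 10 in the IL-4 experiment or over the libraries of both experiments. It passed the filter of the Type 1 fit through the groups where it was high, so its fold change is uncertain. On top of IFN-γ, E. coli raised Ifngr1, Ifngr2 and Nlrc5 and lowered Irf8 by 1.53 (adjusted p = 0.000218), while Irf1 had a change of 0.33 (adjusted p = 0.0544). The genes of ATG8 conjugation and ubiquitin adaptors help to bring these GTPases to vacuoles. Of these 13 genes, 2 rose with IFN-γ + ACs, near the share of 11.4% of all genes tested that did. They were Sqstm1 (0.99 ± 0.14) and Gabarap (0.82 ± 0.16, SE), and the list's median was 0.27.

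The members varied together over the 18 libraries. After each gene's log2 level was set against the mean of its own experiment's ACs libraries, Pearson's r between pairs of the 5 tested members was 0.81 to 0.98, lowest between Iigp1 and Irgm1 and highest between Igtp and Irgm2. The points share 2 stimuli that raised all of them, so these values describe the design as much as the genes. The non-member genes most like the members' mean, among 6907 genes whose mean level reached 50, were Tmem140 (r = 0.983), Irf1 (0.982), Gbp2 (0.978), Tapbpl (0.978) and Gbp4 (0.978).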

How the data were processed

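CEL-Seq2 libraries, which count the 3' ends of transcripts, were examined from 18 samples in 6 groups of 3. The values deposited by the authors are a signal, the reads of a gene in a library divided by a size factor from DESeq2. Per the labels the notes name FastQC 0.11.5, Trim Galore, cutadapt 1.10, TopHat2 2.1.0, Bowtie2 2.2.6, HTSeq 0.6.1, DESeq2 1.26.0 and GRCm38, while the study's methods also describe a STAR pipeline, and which made this table and which strand setting was used are not given in the sources used here. All columns were used. Values were whole multiples of 1 step per library, and 100.0% gave whole reads (tolerance 0.006). Reads per library ranged from 779421 to 7782072. Replicates differed by more than counting error (chi-square per degree of freedom 4.19 to 14.69).

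Genes with a mean of at least 10 over the libraries of a fit were tested with limma 3.58.1 in R 4.3.3 (lmFit, eBayes with a trend) on log2(normalized count + 1), so folds of low genes are understated. The Type 1 comparisons used its 12 libraries, IL-4 its 6, and the difference of responses all 18. A call needed a Benjamini-Hochberg adjusted p under 0.05 and 1.5-fold. The members and lists were chosen with earlier results of these data known. From the other lists, the 3 genes with the largest called change with IFN-γ were named, as were counts of 5 or fewer. An exact permutation test of 3 against 3 cannot go below 0.1 and was not used. The labels do not say whether replicate numbers pair the libraries, and the main fits did not treat them as pairs. Fits were tested on simulated data. Alternatives were pseudocount 5, no filter, a mean of at least 50, the replicate block, upper-quartile rescaling, array weights, the recovered reads in edgeR 4.0.16 and in DESeq2 1.42.0, 1 fit of 18 libraries, no fold threshold, Tgtp1 and Tgtp2 summed, and libraries left out. Tables used Python 3.11.15, numpy 2.4.6 and pandas 2.3.3, and figures matplotlib 3.10.9. The type I interferon-stimulated genes are given under other observations. Positions are from the GENCODE annotation of GRCm38, in which the version of Iigp1 differs from that of the table.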

Additional observations from a re-analysis of the deposited data

Results flagged for a closer look

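The effect of E. coli differed with and without IFN-γ, by the interaction term of limma (n = 3 per group, adjusted over 10166 genes), for Iigp1 (-1.29 on the log2 scale, adjusted p = 0.00501), Gm4841 (-1.31, adjusted p = 0.0299), Gm4951 (-1.31, adjusted p = 0.0117) and Gm5431 (0.90, adjusted p = 0.00502). In Iigp1, Gm4841 and Gm4951 the log2 change with E. coli was above 0 with ACs and below 0 with IFN-γ, with the interaction of Gm4841 past the threshold in 13 of 22 alternatives, and in Gm5431 it was -1.03 with ACs and -0.13 with IFN-γ.

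Among the guanylate-binding proteins the interaction was -2.06 for Gbp5 (adjusted p = 0.00489), which rose by 1.82 with E. coli + ACs against ACs and had -0.24 with IFN-γ present, 0.88 for Gbp4 (adjusted p = 0.0354) and 2.46 for Gbp8 (adjusted p = 1.64e-05). For Nlrc5 it was 0.87 (adjusted p = 0.0111). It was -1.02 for Gabarap (adjusted p = 0.0111) and -0.82 for Sqstm1 (adjusted p = 0.0133). It was -1.33 for Isg15 (adjusted p = 0.000899), -1.16 for Rsad2 (adjusted p = 0.00104) and -1.0 for Ifit2 (adjusted p = 0.0119). The interaction was past the threshold for 7.44% of all genes tested.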

How the results depend on the processing

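In the 4 comparisons of a group with IFN-γ against one without it, all 5 tested members stayed called under every alternative run, leaving out each library included. Of 100 counts of called members under the other alternatives, 93 stayed within 1.5 times. With IFN-γ + E. coli + ACs against IFN-γ + ACs the count of 1 became 4 with no fold threshold and 0 with all 18 libraries in 1 fit. For the interaction the count of 1 became 2 with no fold threshold, 2 with array weights (Irgm1, adjusted p = 0.03) and 0 with all 18 libraries, and it was 1 to 2 with a library left out, 2 without replicate 3 of IFN-γ + ACs (Irgm1 0.79, adjusted p = 0.0238) or replicate 2 of IFN-γ + E. coli + ACs (Irgm1 0.76, adjusted p = 0.0351). For IL-4 + ACs the count of 0 became 1, Irgm1, with array weights (0.76, adjusted p = 0.0221) and without both libraries numbered 3, an alternative that for the difference of the responses was added after seeing the data. The changes of Igtp, Iigp1 and Ifi47 with IL-4 + ACs then turned, to 0.045, 0.013 and 0.055 with array weights and to 0.16, 0.11 and 0.12 without both libraries. With a library left out they ranged from -0.26 to 0.13 for Igtp, -0.66 to 0.36 for Iigp1, -0.29 to 0.31 for Ifi47, -0.038 to 0.53 for Irgm1 and -0.33 to 0.025 for Irgm2. The causes were not tested.

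With no filter on low values, Tgtp1 and Tgtp2 were called higher with IFN-γ + E. coli + ACs against ACs (adjusted p = 0.00775 and 0.0129) and against E. coli + ACs (0.00641 and 0.0309), and Tgtp1 with IFN-γ + ACs against E. coli + ACs (0.0332). At 12 reads or fewer per library, depth limits these calls. Libraries with the same replicate number did not deviate together (correlations -0.0892 to 0.085 over 18 pairs of the Type 1 experiment and 0.000526 to 0.0208 over 3 of the IL-4 experiment), and the replicate block changed no call of a member. Under it the count of called members with IFN-γ + ACs was 5, and the genes called with IL-4 + ACs were 74 in place of 116. That count of genes was 208 with no filter, 745 with array weights, 212 with edgeR, 209 with DESeq2, 221 with all 18 libraries and 656 without both libraries numbered 3. It was 47 without replicate 1 of IL-4 + ACs, 57 without replicate 2, and 62 or 61 without replicate 1 or 2 of the ACs libraries. For the interaction, 756 genes became 495 with all 18 libraries, 439 without replicate 3 of ACs, 400 without replicate 1 of E. coli + ACs and 486 without replicate 2 of IFN-γ + ACs. For the difference of the responses, 1486 became 2423 with array weights. Rescaling to a common upper quartile moved the median of all genes with IFN-γ + E. coli + ACs against ACs from -0.05 to -0.18 on the log2 scale and the share of calls that were higher from 46.1% to 34.4%. No member's call changed with it.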

Other observations

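Some type I interferon-stimulated genes, which answer mainly to IFN-α and IFN-β, rose with E. coli in the absence of IFN-γ. With E. coli + ACs against ACs, 5 of 12 rose and 0 fell, and the list's median log2 change was 0.54. Of all 10166 genes tested, 513 rose and 534 fell. Rsad2, an antiviral enzyme also called viperin, changed by 1.10 ± 0.14 (SE, n = 3 per group, adjusted p = 1.44e-05) and Isg15, a ubiquitin-like modifier, by 1.01 ± 0.15 (SE, adjusted p = 0.000148). Ifit2 had 0.29 (adjusted p = 0.289). With IFN-γ + ACs, 8 of 12 rose, led by Ifit2 with 2.48 ± 0.16, Rsad2 with 1.61 ± 0.14 and Isg15 with 1.39 ± 0.15 (SE, n = 3 per group). With IFN-γ + E. coli + ACs against IFN-γ + ACs, 3 fell and 0 rose, where 8.61% of all genes tested fell. IL-4 + ACs moved 0 of 12. Without both libraries numbered 3 of the IL-4 experiment, Ifit3 was past the threshold and lower (-1.10, n = 2 per group, adjusted p = 6.17e-05).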
